A study of Mus musculus with 6 samples.

Results

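The sites described here are 66 variants of a 16-base composite DNA site in which the base just before the ETS core was replaced. The 16-mer joins a site for ETS factors to a cAMP response element (CRE), and its positions are numbered from 1 at the 5′ end. Position 3 holds the C that precedes the GGAA core. A variant was included where position 3 carried another base, either alone (3 variants: C3A, C3G and C3T) or together with 1 substitution at positions 10 to 16 in the CRE (63 variants). In a name such as C3A the first letter is the base of the intact site and the last letter the new base. Each variant was taken at the 2 probe placements where the site starts at base 11 (middle) or base 21 (inner), in both orientations, which gave 264 probes. The arrays carried 1129 versions of the site, the intact one included, on 6774 probes, among 10812 sequences that were not controls.

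ETS factors such as GABPa grip the GGAA core through a winged helix-turn-helix domain, and the base just before the core is usually C or A in the sites they bind. CREB1 is a bZIP factor that binds as a dimer to the palindromic CRE, TGACGTCA. Promoters that carry an ETS site beside a CRE can bring both proteins onto neighbouring DNA.

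The sequences below show the intact 16-mer with position 3 in capitals, the 3 new bases at that position, and the pairs of double substitutions on which the results turn. Capitals mark the substituted bases, so every letter in lower case is as in the intact site.
intact: acCggaagtgacgtca
C3A: acAggaagtgacgtca
C3G: acGggaagtgacgtca
C3T: acTggaagtgacgtca
C3A+G10C: acAggaagtCacgtca
C3A+G10A: acAggaagtAacgtca
C3A+C15T: acAggaagtgacgtTa
C3A+C15A: acAggaagtgacgtAa
C3A+C12A: acAggaagtgaAgtca
C3A+G13T: acAggaagtgacTtca
None of the substitutions removed or added a core: each of the 264 probes held GGAA exactly once, counting both strands. The core lies at positions 4 to 7 and TGACGTCA at positions 9 to 16, and 3 of the 66 variants, those changed at position 3 alone, kept the whole CRE. The 60-base probe below holds C3A in the middle placement, forward, with the 16 bases of the site in capitals at bases 11 to 26.
C3A middle forward: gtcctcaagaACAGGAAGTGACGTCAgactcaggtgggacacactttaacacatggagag

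Binding was read on protein binding microarrays, where probes are made double-stranded on the slide and a bound protein with a glutathione S-transferase (GST) tag is seen as Cy5 fluorescence. The mouse DNA-binding domains were made by in vitro translation (250 µl, 37 °C, 2 h) and 230 µl went onto each array. In all, 3 groups of 2 arrays were compared. They were GABPa-GST alone from 570 ng of plasmid, GABPa-GST from 570 ng of plasmid together with untagged CREB1 from 66 ng of plasmid, and CREB1-GST alone from 570 ng of plasmid. Untagged CREB1 gives no fluorescence, and the mixed reaction therefore reports GABPa in its presence. These are isolated domains on naked DNA. No label tells whether separate protein preparations lay behind replicate arrays, and the p-values may measure technical spread alone. The first arrays of both GABPa groups shared a slide and so did the second arrays, while the CREB1-GST arrays lay on 2 further slides. CREB1-GST alone therefore cannot be told apart from its slides and scans.

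A site counted as above background where more than 0.5 of its spots passed the scanner software's test (13 standard deviations). With GABPa alone 0 of the 66 variants passed on both arrays, with GABPa and CREB1 11 passed, all of them among the 22 that carry C3A, and with CREB1-GST alone all 66 passed. A member below that line can still hold signal. On the 4 arrays with tagged GABPa the software subtracted a fitted background that averaged 883 to 1467, and most members then carried a surrogate value in its processed signal. The values printed first are therefore the authors' deposited intensities, in which the local background of each spot was subtracted, as the mean of the 4 placements on each array and with no scaling between arrays. Each probe had 17 to 24 spots on an array. To set aside signal that does not need the ETS core, the mean of 9 sites with a broken core (a substitution at positions 4 to 6 and the same CRE part) was subtracted, and the remainder was written as a percent of the same difference for the intact site. That percent is called net binding here.

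With GABPa alone the site with C3A lay between the intact site and the sites with C3G and C3T. The deposited intensity of the intact site was 3649 and 6767 on the 2 arrays with GABPa alone. It was 887 and 1030.1 for C3A, 289 and 306 for C3G, and 244 and 209 for C3T, against a mean of 276 and 266 for the broken cores. On both arrays C3A lay below the intact site and above the broken cores, and neither C3G nor C3T left the range of the 9 broken cores, which ran from 199.8 to 546 on the first array and from 133 to 554 on the second. C3G and C3T were not told apart (log2 difference of deposited values 0.39, SE 0.156, adjusted p = 0.178 in limma). As net binding C3A kept 18.1% and 11.7%, C3G 0.39% and 0.61%, and C3T -0.96% and -0.88%. A negative value says that the site was dimmer than the mean of the broken cores, and G5T, the brightest of these, itself held 8.0% and 4.4%.

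With CREB1 in the reaction C3A again lay highest of the 3, and C3G lay above C3T on deposited values (log2 difference 1.34, SE 0.156, adjusted p = 0.00389 in limma) but not on the processed signal (0.07, adjusted p = 0.115). The intact site gave 5705 and 6526, C3A 2599 and 3014, C3G 549.9 and 478, C3T 256 and 159.8, and the broken cores 281 and 233. Both arrays with CREB1 were brighter at C3A than both arrays without it, and the same held at C3G. Net binding was 42.7% and 44.2% for C3A, 4.96% and 3.88% for C3G, and -0.46% and -1.17% for C3T. On these arrays C3G was set against the mean of the broken cores only, and not against their range. The gain in net binding was 28.5 percentage points (SE 5.60) for C3A and 3.92 (SE 0.676) for C3G, with adjusted p of 5.05e-06 and 1.68e-07 in limma with an intensity trend. That fit pooled its spread over all 330 sites so measured, which share 1 intact site on each array. With 2 arrays a group, its p-values may be too small. For C3T the difference was 0.10 (SE 0.380, adjusted p = 0.870), so its 2 group means were not told apart at this precision.

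The pattern held over the 4 probe placements, which share the site and differ in its distance from the slide and its strand. With GABPa alone the intensity of C3A ran from 643 at the inner forward placement to 1405 at the middle reverse one on the first array, and from 721 to 1552 on the second. With CREB1 its lowest and highest placements were 1944 and 3172 on the first array and 1888 and 4098 on the second. In every placement both arrays with CREB1 were above both arrays without it at C3A. C3G was higher with CREB1 in all 4 placements on the first slide and in 3 of 4 on the second, the exception being inner forward (343 without and 321 with CREB1).

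The substitutions to A at the 2 bases before the core gave similar values. C2A, a substitution 1 base further from the core, had an intensity of 814 and 930.0 with GABPa alone and of 2577 and 3155 with CREB1. Its net binding was 16% and 10.2% alone and 42.3% and 46.4% with CREB1, beside 18.1%, 11.7%, 42.7% and 44.2% for C3A. C2G held more in each array (26.7% and 16.6%, then 45.3% and 51.9%) and C2T less than C2A (3.1% and 2.6%, then 16.8% and 16.1%). Both lay above C3G and C3T on each of the 4 arrays. On the core side, the 3 substitutions at position 4, the first G of the core, lay between -1.3% and 1.1% on all 4 arrays. These neighbours are given side by side without a test.

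Each position 3 change was next set against the same site with C at position 3 on the same array, which cancels the scale of the array. On log2 processed signal, 66 of 66 members were lower with GABPa alone and 66 of 66 with CREB1 (limma). The share of steps called lower over the whole table of 2208 was 38.8% and 69.3%. For C3A with CREB1 the step was -1.51 and -1.36 on the 2 arrays, a mean of -1.43 ± 0.11 (SD, n = 2), which is 2.70-fold lower (adjusted p = 0.000152 in limma). With GABPa alone C3A was not well above background and was at least 4.06-fold lower than the intact site. The fitted step there, -3.87 with a surrogate value for C3A, had an adjusted p of 4.04e-06 in limma, and the bound itself was not tested. C3G and C3T were not well above background in either group and were at least 4.06-fold lower alone and at least 7.31-fold lower with CREB1. These bounds show no order between C3G and C3T.

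The step at C3A was smaller with CREB1. It rose by at least 0.59 on the log2 scale when the bound of the dim group is used. The fit itself, in which C3A with GABPa alone is a surrogate value, put the rise at 2.44 (adjusted p = 0.00123 in limma), with 2.16 for the arrays of the first slide and 2.71 for those of the second. Over the 22 sites with C3A the difference was higher in 18 and lower in 0, against 8.97% called higher over the table. All 11 of those above background with CREB1 were among the 18. The rest of the 18 were below background in both GABPa groups as the mean of their placements, so the processed signal gave no size for them. Single probes of a C3A site below background could still pass with CREB1 and not without it, as the middle forward and middle reverse probes of C3A+G10T did. At C3A+T14C, 1 of the 11, the bound of the dim group was -0.29 and shows no rise. With normexp background correction 18 of the 22 passed as well, with C3A at 1.27 (adjusted p = 0.00205). On the deposited values 0 of 22 passed in limma, where 11 had an unadjusted p under 0.05 and C3A stood at 1.29 (adjusted p = 0.104). That fit called no step of the whole table in either direction.

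For C3G and C3T the processed signal gave the opposite sign, with 12 and 12 of 22 sites called lower, beside 50.3% over the table. All 24 were below background in both GABPa groups, so that scale measured no difference there. With normexp C3G rose in 11 of 22 sites and C3T in 1 of 22, none fell, and the shares over the table were 10.2% higher and 51.9% lower. C3G itself stood at 0.66 (SE 0.104, adjusted p = 0.00369 in limma) and C3T at 0.07 (SE 0.124, adjusted p = 0.664). On deposited values, where no step passed, they stood at 0.47 and -0.48. With the slide as a block the 24 lower calls on the processed signal became 8, and without the first or the second array of GABPa alone they became 2 and 6.

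Net binding puts the double variants on 1 scale. The 22 sites with C3A ran from 12.4% to 22.2% on the first array with GABPa alone and from 8.72% to 15.7% on the second, with medians of 17.3% and 11.7%. Each of the 22 was lower on the second array. With CREB1 they spread from 7.90% to 43.8% and from 6.97% to 48.4%, with medians of 25.4% and 25.9%. The 22 sites with C3G had medians of 0.68% and 0.43% alone and 2.07% and 1.58% with CREB1, with a highest value of 5.49%. The 22 sites with C3T had a median below 0 on each of the 4 arrays and a highest value of 0.76%. Net binding above 0 was called in 22 of 22 C3A sites in both groups, in 3 and 17 of 22 C3G sites, and in 0 of 22 C3T sites in either (limma), where 79.1% and 80% of all 330 such sites were called above 0. C3T was called below 0 at 5 sites alone and 6 with CREB1 (8.18% and 6.97% overall), and 6 and 6 had an unadjusted p under 0.05. The difference between the groups was called higher at 13 of 22 C3A sites, 11 of 22 C3G sites and 0 of 22 C3T sites, against 34.5% overall. It was called lower at none of the 66, where the table had 6.97%, and 24 of the 66 had an unadjusted p under 0.05.

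What the CRE substitution did to C3A depended on where in the palindrome it lay. By position, net binding with CREB1 on the first array ran over the 3 substitutions from 7.90% to 20.2% at position 10, from 10.6% to 19.1% at position 11 and from 12.4% to 31.6% at position 12. It ran from 14.3% to 29.5% at position 13, from 19.3% to 32.4% at position 14, from 33.3% to 43.8% at position 15 and from 33.9% to 35.4% at position 16. The second array gave 6.97% to 20.8% at position 10 and 36.4% to 41.3% at position 16. The ends of the CRE thus differed: no C3A site changed at position 10 or 11, next to the ETS part, reached the lowest site changed at position 15 or 16 on either array. With GABPa alone the same positions lay closer together, at 12.4% to 15.2% for position 10 and 16.1% to 18.2% for position 16 on the first array, and at 9.04% to 10.1% and 11.6% to 12.9% on the second.

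At 9 of the 21 double variants with C3A the difference between the groups did not pass, and these include the lowest ones. C3A+G10C held 12.4% and 9.0% alone and 7.90% and 6.97% with CREB1, a difference of -3.30 percentage points (SE 1.72, adjusted p = 0.110 in limma). C3A+A11C held 18.0% and 11.4% alone and 10.6% and 9.5% with CREB1 (-4.68, SE 2.40, adjusted p = 0.106). At the other end, C3A+C15A held 19.3% and 12.8% alone and 43.8% and 48.4% with CREB1, a gain of 30.1 percentage points (SE 5.85, adjusted p = 4.29e-06). C3A+A16G gained 24.5 (SE 5.15) and C3A+C15T 23.8 (SE 5.56), beside 28.5 for C3A with its CRE intact. C3A+C15A also kept the largest share of the intact site's CREB1-GST signal among the C3A doubles, 79.3% and 78.6%.

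The planned form of the comparison with broken cores, a log2 difference on the processed signal, called 19 of 22 C3A sites higher with GABPa alone and 22 of 22 with CREB1 (limma), against 48.2% and 65.2% of 330 sites. All 22 were below background with GABPa alone and 11 of them with CREB1, so that signal gave no size for those calls. C3G and C3T had 0 of 44 in both groups, where 0 and 2 had an unadjusted p under 0.05. All 44 were below background in both GABPa groups, so that signal did not measure them against the broken cores. With normexp 20 of 22 C3G sites were higher with GABPa alone and 22 of 22 with CREB1, against 86.1% and 85.2%. On deposited values it was 0 and 20 of 22, against 47% and 82.4%. C3T had 0 of 22 higher on these signals in both groups, and 1 lower with normexp and GABPa alone (6.06%). The 19 became 10 without the first array of GABPa alone and 0 with the forward placements only, where 1 had an unadjusted p under 0.05. On the CREB1-GST arrays 21 of 22 C3G sites stood above the broken cores and 21 of 22 C3T sites below them (16.4% and 32.1% over the 330), with medians of 0.25 and -0.13. On deposited values none of the 66 passed there and none had an unadjusted p under 0.05.

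On the log2 processed signal the CRE step, a double variant minus its position 3 single, was lower with CREB1 in 20 of 21 C3A sites, 1 of 21 with C3G and 0 of 21 with C3T, against 69.3% of all steps. Among the 10 C3A doubles above background, the largest falls were T14C at -1.33 and -1.06, G13A at -1.07 and -0.94 and C12T at -0.83 and -0.67. The smallest were A16G at -0.45 and -0.23 and C15T at -0.29 and -0.27, while C15A stood at 0.04 and 0.08 (mean 0.06, SE 0.033, adjusted p = 0.180 in limma). The dimmest, such as C3A+G10C, are bounded only: it lay at least 2.71-fold below C3A. With GABPa alone all 66 members were below background, so a fall in the CRE step could not show on the processed signal, where 0 of 63 were lower and 1 higher (38.8% and 1.95% over the table) and 2 had an unadjusted p under 0.05. With normexp 9 of 63 were lower with GABPa alone, 3 of them with C3A (54.1%), and on deposited values 0 (41%), with 4 at an unadjusted p under 0.05 in limma. The difference of the CRE step between the 2 groups was lower in 19 of 21 C3A sites on both the processed signal and normexp, against 50.3% and 51.9%. On the processed signal it mostly repeats the step with CREB1, since a fall with GABPa alone could not show there. Of the 19 sites called on that signal, 8 were above background with CREB1. On deposited values 0 of 21 passed, with 15 at an unadjusted p under 0.05 and a median of -0.97 over the C3A doubles.

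The C3G and C3T sites lay at the floor of the processed signal in the GABPa groups, so their CRE step was read on the other signals. With normexp it was lower with CREB1 in 20 of 21 sites for each of C3A, C3G and C3T, against 89.2%, with medians of -1.0, -0.78 and -0.54. On deposited values the counts were 18, 20 and 20 of 21, against 83.9%. Sites with a broken core were also dimmer beside a changed CRE. Their mean intensity with CREB1 was 281 and 233 beside the intact CRE and 135 and 71.0 beside G10C. C3T was dimmer still, at 256 and 159.8 with the CRE intact and 127 and 32.6 with G10C.

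A double substitution whose effects are independent would lie at the sum of its singles' log2 steps. With CREB1, 18 of 21 C3A doubles lay lower than that on the processed signal and 0 higher, where 25.4% and 52.2% of 1080 doubles did. All 11 doubles below background were among the 18, and their size is not given on that signal. At the 10 above background the departure ran from -0.69 (SE 0.088, adjusted p = 7.01e-06 in limma) for C3A+T14C and -0.58 for C3A+G13A to -0.01 (SE 0.072, adjusted p = 0.877) for C3A+C15A. Of these 10, 7 passed on the processed signal, 1 with normexp (C3A+T14C at -0.22) and 0 on deposited values, where C3A+T14C stood at -0.21 (SE 0.082, adjusted p = 0.100) and 0 had an unadjusted p under 0.05. The 11 C3A doubles that lay lower on deposited values (25% over the table) were the 11 below background, with C3A+G10C at -1.48 (SE 0.096, adjusted p = 0.00197). With GABPa alone 0 of 21 C3A doubles departed in either direction on the processed signal (3.33% lower and 33.1% higher over the table), and 0 had an unadjusted p under 0.05. All of them were below background there, so that signal could not show a departure. With normexp and on deposited values 0 of 21 passed as well, with 2 and 1 at an unadjusted p under 0.05 in limma. The shares over the table were 4.26% and 1.48% lower and 26.2% and 20.5% higher. The 16 C3G and 18 C3T doubles called higher with CREB1 were below background throughout, and with normexp 19 C3G and 6 C3T doubles were lower and 2 C3T doubles higher, against 28.1% and 29.9%.

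The CRE is a palindrome, so each substitution on the side near the ETS core has a mirror image with the complementary base on the far side. Of the 9 mirror pairs in sites with C3A, the near member was lower with CREB1 in 7 and higher in 1 (limma), against 40.9% and 4% of 225 pairs over all ETS parts. On deposited values it was 7 and 0, against 52.4% and 2.67%. C3A+G10A had an intensity of 715 and 687, and its mirror C3A+C15T had 2321 and 2785. The near members at positions 10 and 11 were all below background, so sizes are given on deposited values. The log2 difference was -1.86 (SE 0.087, adjusted p = 0.000898 in limma) for G10A against C15T and -1.50 (SE 0.084) for A11T against T14A. For the central pairs it was -0.24 (SE 0.064) for C12A against G13T, -0.04 for C12G against G13C and 0.14 (adjusted p = 0.0854) for C12T against G13A. The near side was thus lower in all 6 outer pairs and in 1 of the 3 central ones. The 1 pair called higher on the processed signal was C12T against G13A.

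With CREB1-GST alone the near member in sites with C3A was lower in 6 of 9 pairs on the processed signal, with a median of -0.25, a share near the 60.4% of all pairs. On deposited values it was lower in 1 of 9 (17.3% over the table), with 3 at an unadjusted p under 0.05 and a median of -0.21. C3A+G10A and C3A+C15T gave 24243 and 23478 against 27997 and 26408. With GABPa and CREB1 the median on deposited values was -0.81. With GABPa alone it was -0.20 on deposited values, where 0 of 9 pairs passed and 4 had an unadjusted p under 0.05 in limma. The difference in the contrast of near and far members between GABPa with CREB1 and GABPa alone was lower in 6 of 9 pairs on both the processed and the deposited values, with medians of -0.96 and -0.94, against 31.1% and 17.3%. On the processed signal, where all these sites were below background with GABPa alone, it was higher in 1 pair, C12T against G13A (3.56% over the table). With the intact ETS part the medians were -0.39 and -0.25, with 6 and 0 of 9 lower, and on deposited values 4 of these 9 had an unadjusted p under 0.05. Whether C3A differs from the intact ETS part in this respect was not tested.

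CREB1-GST alone was little affected by position 3. The intact site gave 51198 and 48706, C3A 52048 and 48032, C3G 53103 and 49823 and C3T 48067 and 44910.1, so that C3T was the only one below the intact site on both arrays. None of these 3 steps passed (limma, adjusted p = 0.867, 0.707 and 0.377). Over the 22 CRE contexts the position 3 variants kept a median of 102% and 95.7% (C3A), 110.1% and 102% (C3G) and 92.7% and 87.7% (C3T) of the signal of the same context with C at position 3. The position 3 step was lower in 3 of 66 members (limma, 57% over the table), all with C3T: C3T+G13T at -0.66 (SE 0.133, adjusted p = 0.00994), C3T+C12A at -0.50 and C3T+G13C at -0.34. This count was 13 without the first CREB1-GST array, 1 without the second, and 0 on deposited values (41.9% over the table), where 0 had an unadjusted p under 0.05. Up to 15.1% of a member's spots were saturated on these arrays.

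Among the new bases themselves, CREB1-GST gave C3G over C3T in 22 of 22 contexts on the processed signal, with a median log2 difference of 0.38, where 38.9% of all such contrasts were higher and 31.3% lower. C3A was under C3G in 18 and over C3T in 19 of 22. On deposited values the same medians were 0.33, -0.20 and 0.14, and 1, 0 and 0 contexts passed, with 4, 0 and 0 at an unadjusted p under 0.05, where 15.9% of all contrasts were called higher and 14.8% lower. With tagged GABPa and CREB1 the order was another one: C3A was over C3G and over C3T in 22 of 22 contexts on both signals, and C3G was over C3T in 19 of 22 on deposited values and in 1 of 22 on the processed signal, where both are below background. The shares called higher over the table were 24.1% and 32.1%.

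All CRE substitutions lowered CREB1-GST at position 3 variants on the processed signal, in 63 of 63 sites (57% over the table). On deposited values 57 of 63 passed (41.9% over the table), and 60 had an unadjusted p under 0.05 in limma. In sites with C3A the falls ran from -3.75 for G13T and -3.66 for C12A to -0.41 for C15A. The order with CREB1-GST differed from the one with tagged GABPa and CREB1. C3A+C12A and C3A+G13T held 9.5% and 9.8% of the intact site's CREB1-GST signal on the first array, and C3A+G10C held 49.5%. With GABPa and CREB1 the net binding of these sites was 12.4%, 14.3% and 7.90% on the first array, so the site with the most CREB1-GST of the 3 held the least GABPa. The order of the 3 was the same with GABPa alone (18.2%, 22.2% and 12.4% on its first array), and none of their differences between the GABPa groups passed (limma, adjusted p = 0.411, 0.290 and 0.110). C3A+C15T, with 54.7% of the CREB1-GST signal, held 39.3%. No test of this difference in order was made, and the 2 readouts come from different slides.

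The change of the GABPa level itself on adding CREB1 was tested probe by probe after scaling the arrays to each other. Among the 88 probes with C3A 58 were higher and 0 lower (limma), and 0 of the 176 probes with C3G or C3T passed in either direction, where 6.73% of 10812 sequences were called higher and 3.58% lower. All 176 were below background both with and without CREB1, so this signal measured no change at them and the 0 does not show that they were unchanged. The 39 C3A probes above background with CREB1 were all among the 58. Sizes are not given on this signal, because it is a surrogate value without CREB1. In deposited intensity the middle forward probe of C3A went from 849 and 1074 without CREB1 to 3172 and 4098 with it (adjusted p = 0.00363 on the processed signal), and the middle reverse probe from 1405 and 1552 to 3146 and 3968 (adjusted p = 0.0353). By placement 17 and 18 of 22 passed at the middle forward and reverse positions, and 10 and 13 at the inner ones. Calls covered 18 of the 22 variants, and 10 variants passed in all 4 placements. The 58 calls became 0 without the first or without the second array of GABPa alone, with 61 and 60 higher at an unadjusted p under 0.05, and no sequence of the 10812 was called higher in either fit. On deposited values 0 passed and 41 had an unadjusted p under 0.05.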

How the data were processed

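The deposited intensity of each spot (linear, Cy5) was extracted with Agilent Feature Extraction 12.0.1.1, per the file headers. Its processed intensity has a fitted background surface subtracted, is detrended, and is a surrogate value where not significant. The deposited value table holds intensity per probe as the median over spots of spot median minus local background median; recomputed from the scanner files, 6891 of 6891 entries per array were met within 0.01. It is linear, neither centred nor inverted, and its column medians were 325 and 339 (GABPa alone), 317 and 242 (GABPa with CREB1) and 16932 and 17398 (CREB1-GST).

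Controls and outlier spots (2.26% to 4.55% per array) were left out. Log2 processed signals were averaged over spots, and over the 4 placements for steps, departures from additivity and heights. For the addition of CREB1 each array was scaled to its 75th percentile over the spots of 1143 sequences that passed background everywhere. Deposited values under 1 were set to 1 before log2. Where a member was not well above background on both replicate arrays, a fold is given as "at least": the bright group's mean against the higher of the lowest signal well above background and the member's own. Tests used limma 3.58.1 (lmFit, eBayes) in R 4.3.3, and p-values were Benjamini-Hochberg adjusted over the whole table of 2208 steps, 1080 doubles, 330 heights or 10812 sequences, with a threshold of 0.05. Steps, departures and heights took in all 6 arrays, each group with its own mean, and differences between the GABPa groups used their 4 arrays. Normexp (offset 50) used the spot mean and local background. The scripts were tested on simulated data.

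Same-numbered arrays of the GABPa groups shared a slide per the file headers, and their deviations from the group means correlated at 0.373 over 10812 sequences. An exact permutation test of 2 arrays against 2 cannot go below p = 0.333, so none was run. Precision is limited by the number of arrays.

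The members and lists were chosen with earlier results of these data known. Named variants were the 3 singles, the 3 highest and 3 lowest doubles above background per comparison, the range at each of positions 10 to 16, and the singles at positions 2 and 4 as neighbours. Net binding (limma with an intensity trend, on the mean of placements), the contrast of new bases, the mirror pairs, the deposited values plus 100, and the doubles below background that are named were chosen after the values were seen. The net binding fit took its spread from all 330 sites together, so its p-values lean on more than the 2 arrays of a group. The outer placements were not analysed here.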

Additional observations from a re-analysis of the deposited data

How the results depend on the processing

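Against the processed signal, 18 other settings were run, and the position 3 step stayed lower in 66 of 66 members in both GABPa groups wherever all members were tested, except 65 with GABPa alone on deposited values. Dim members had surrogate values on the processed signal, so most counts moved with the signal, in the order normexp, deposited values, deposited values plus 100. CRE steps lower with CREB1 went from 21 to 60, 58 and 58, and their difference between the GABPa groups from 19 lower to 59, 0 and 37. Position 3 differences went from 18 higher to 30, 0 and 10 and from 24 lower to 0, 0 and 0. Departures with CREB1 went from 18 lower to 37, 36 and 32 and from 34 higher to 2, 0 and 0, and departures lower with CREB1-GST from 4 to 2, 0 and 0. Heights above broken cores went from 22 to 44, 42 and 43 with CREB1, and from 19 to 42 with normexp for GABPa alone. Position 3 steps lower with CREB1-GST went from 3 to 6, 0 and 0. On deposited values the addition of CREB1 went from 58 probes to 0 (41 at an unadjusted p under 0.05), and the 0 for CRE step differences had 40. The difference at C3G reversed from -0.76 to 0.66, 0.47 and 0.33, and that at C3T from -0.82 to 0.066 with normexp. The cause of these moves was not tested.

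With dim sequences left out, fewer members were tested: with CREB1 11 of 11 position 3 steps, 9 of 10 CRE steps, 7 of 10 departures (0 higher) and 11 of 11 heights passed, as did 11 of 11 differences at position 3 (0 lower) and 9 of 10 in the CRE step. No member was left for GABPa alone in steps, departures or heights. The median over spots gave 6 steps lower with CREB1-GST and 10 heights with GABPa alone. Forward placements gave 9 departures with CREB1-GST and 0 heights with GABPa alone. Reverse placements gave 9 steps lower and 1 departure with CREB1-GST, 37 CRE steps with CREB1, and -0.0024 for the step of C3A with CREB1-GST, against 0.02. The replicate block, the slide for the GABPa groups, gave 8 position 3 differences lower in place of 24 and moved no other count by over 1.5 times.

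Leaving out 1 array at a time gave 0 to 42 probes higher on adding CREB1, 2 to 24 position 3 differences lower, 1 to 13 steps and 0 to 5 departures lower with CREB1-GST (0 departures, with 2 at an unadjusted p under 0.05 in limma, without its second array), and 10 to 17 heights with GABPa alone. In these fits the lone array of a group is assumed to vary like the other groups. With 2 arrays a group and dim members under the software's background, small differences among C3G and C3T sites were not detectable on the processed signal.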
